A study of Mus musculus with 12 samples.

Results

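Prostate organoids were given UK5099 together with butyrate, and the 3 samples given both compounds (UK5099 + Butyrate, called the combination here) were compared with the 3 samples given butyrate alone. The members are all genes whose mean reached 1 TPM, a level in transcripts per 1000000 transcripts, in either of these groups. They number 13566 of the 24674 genes in the deposited RNA sequencing table: 12583 reached 1 TPM in both groups, 643 in butyrate alone and 340 in the combination alone. The organoids are three-dimensional cultures grown from basal cells of the prostate of wild type C57BL/6 mice, and the labels name Vehicle, UK5099, Butyrate and UK5099 + Butyrate as treatments with 3 replicates each. The labels give no dose, duration, age or sex, and they do not say whether replicates came from separate animals, so the p-values measure the spread between these samples, which may be technical.

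UK5099 blocks the mitochondrial pyruvate carrier, the complex of MPC1 and MPC2 that brings pyruvate made by glycolysis into mitochondria, where it feeds the tricarboxylic acid (TCA) cycle. Butyrate is a short-chain fatty acid that inhibits histone deacetylases, enzymes that remove acetyl groups from histones, and it can also be burned as a fuel. In the prostate, basal cells line the outside of the gland and carry keratins 5 and 14, whereas the secretory luminal cells carry keratins 8 and 18. Stratified epithelia that mature along a squamous path switch on envelope proteins, many of them from a gene cluster called the epidermal differentiation complex. The comparison addresses what a block of the pyruvate carrier still changes in gene expression when deacetylases are inhibited.

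The deposited values corresponded to 35453162 to 38662786 sequenced fragments per butyrate sample and 38973492 to 43498956 per combination sample, and the median member varied between replicates with a coefficient of variation of 3.53% in butyrate and 4.33% in the combination. Replicate 1 of the combination stood apart: its counts differed from those of replicates 2 and 3 by a chi-square of 6.34 to 6.65 per gene, against 1.98 between replicates 2 and 3 and 1.93 to 2.31 between butyrate replicates. Replicate 1 of the UK5099 group stood apart in the same way (6.30 to 6.52, against 2.65). The median member was lower in the combination by 0.12 on the log2(TPM + 1) scale, and this shift was -0.00 under median-of-ratios scaling, so coefficients below, which are not corrected for it, include this shift unless another scaling is named. Markers of other cell types were checked, although TPM of different genes are not comparable here and many markers were not in the table. Of 14 immune markers, 4 were in the table and 3 of those were under 1 TPM. Their summed level was 66.3 to 68.7 TPM in butyrate and 86.4 to 97.2 TPM in the combination, nearly all of it from Cd68, a lysosomal protein of macrophages. The 7 fibroblast markers in the table summed to 10.7 to 11.03 TPM in butyrate and 2.32 to 2.698 TPM in the combination, with 6 of them under 1 TPM. Dcn was the highest and made up most of each sum and nearly all of the difference. The 7 endothelial, 4 smooth muscle, 6 neuroendocrine, 4 red blood cell and 2 prostate secretion markers in the table each summed to 2.051 TPM or less in every butyrate and combination sample, and no member of the 7-gene seminal vesicle list was in the table. The part of other cell types in the results was not tested.

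Adding UK5099 raised squamous and stress keratin genes and lowered luminal, acute-phase and some chemokine genes. In such bulk samples fewer cells of a type and less RNA per cell cannot be told apart. A gene is called here when the adjusted p of the limma two-factor model was under 0.01 and its coefficient on log2(TPM + 1) was over 1 in size, and "rose" or "fell" is used for an adjusted p under 0.01 at any size. Of the 13566 members, 224 were called (1.65%, and 0.908% of all 24674 genes), of which 136 were higher in the combination (1.00% of members) and 88 lower (0.649%). Because a gene could enter the member set through 1 group, 29 of the 136 were under 1 TPM in butyrate and 23 of the 88 under 1 TPM in the combination, and such genes had to differ. Protein-coding genes made up 122 of the higher and 74 of the lower genes. Larger differences leaned upwards, with 33 coefficients above 2 and 9 below -2. The adjusted p alone passed for 5849 members (43.1%), 1044 higher (7.70%) and 4805 lower (35.4%). Higher genes were thus 17.8% of those passing the adjusted p alone, but 52.2% with median-of-ratios scaling and 39.9% with quantile normalisation. With both limits the share of higher genes was 60.7%, and 72.4% (181 of 250) and 70.2% (174 of 248) after the same scalings. Without combination replicate 1 the count was 213, of which 201 were among the 224. The values of all 224 called genes did not overlap between the groups, as was so for 64.7% of members.

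**Figure D1:**
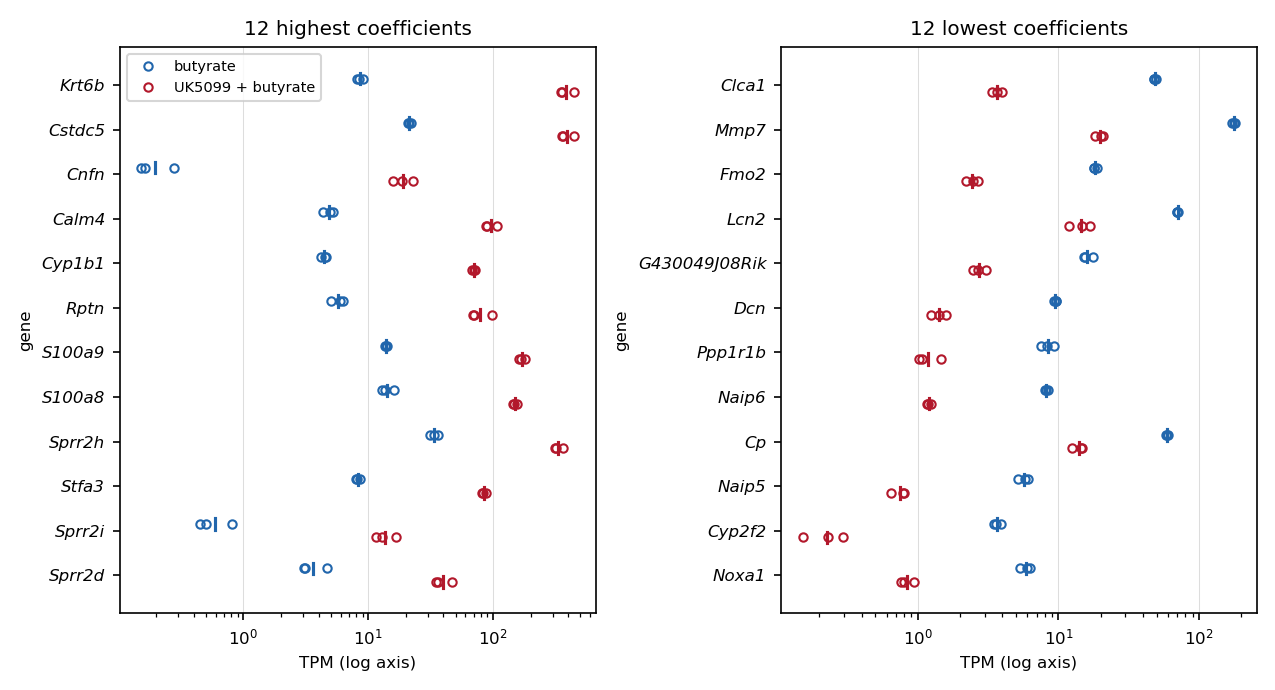
TPM on a log axis for the 12 genes with the highest (left) and the 12 with the lowest (right) coefficient of combination minus butyrate among called genes. Circles are single samples, 3 per group, and short bars are group means. The groups do not overlap for any of the 24 genes, which was a condition for choosing them. Krt6b and Clca1 head the 2 panels with ratios of means of 45.0 and 13.2.

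Keratins that mark basal and stressed epithelium moved up. Of the 7 basal and stress keratins, all at 1 TPM or more, 5 were called higher, 6 rose, Krt15 fell and the median coefficient was 1.16, against -0.12 over all members. Krt6b, a keratin of activated epithelium, measured 8.46, 9.01 and 8.10 TPM in the butyrate replicates and 443, 350 and 358 TPM in the combination replicates. Every combination value was above every butyrate value, a 45.0-fold higher mean with a coefficient of 5.33 ± 0.09 (SE, n = 3 per group, limma adjusted p = 2.52e-09). Its recovered fragments were not whole numbers, and whether reads shared with its near copies were divided was not tested, so its level is uncertain. Krt16, the partner of the keratin 6 proteins, rose from 134 ± 5.66 to 960 ± 55.2 TPM (SD, n = 3), a coefficient of 2.84. Krt6a rose from 2055 ± 46.0 to 4597 ± 397 TPM.

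The defining basal keratins were abundant in every sample and rose further. Krt14 measured 1365, 1375 and 1432 TPM with butyrate and 3779, 3561 and 3583 TPM with both compounds, a coefficient of 1.39 ± 0.03 (limma adjusted p = 9.35e-09). Krt5 was at 3152 ± 72.3 TPM and rose to 4514 ± 17.8 TPM, a coefficient of 0.52 that did not reach the size limit. Krt17, another keratin of activated basal cells, rose from 223 ± 8.05 to 483 ± 19.2 TPM. It was chosen after its values were seen, because UK5099 without butyrate left it at 440 ± 8.19 TPM against 458 ± 9.01 TPM in vehicle (coefficient -0.06, limma adjusted p = 0.23). The difference between the UK5099 effects with and without butyrate, the interaction coefficient, was 1.17 for Krt17 (limma adjusted p = 5.90e-07). Of 13 basal identity genes, 8 rose, 1 fell, none was called and the median was 0.29. Col17a1, which encodes a hemidesmosome collagen, rose by a coefficient of 0.79, and Pdpn, podoplanin, by 0.56. The basal lineage factor Trp63 was at 8.46 ± 0.0861 and 8.76 ± 0.361 TPM, a coefficient of 0.04 (limma adjusted p = 0.512).

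Squamous maturation genes rose as a large group. Of 32 suprabasal and squamous genes listed, 31 were in the table and 29 reached 1 TPM, of which 17 were called higher and 1 lower, 23 rose, 1 fell and 5 did not pass. The list median was 1.14, and 3 of the 17 were under 1 TPM in butyrate and so were members only through the combination. Without combination replicate 1, 22 rose and the median was 0.99. Cnfn, cornifelin of the cornified envelope and such a gene, was at 0.153, 0.276 and 0.163 TPM with butyrate and 23.01, 15.7 and 18.5 TPM in the combination. The butyrate values rest on 3 to 5 fragments and the combination values on 328 to 534, so the groups do not overlap but the 96.6-fold ratio is imprecise. Rptn, which encodes the envelope protein repetin, rose from 6.22, 5.92 and 4.99 TPM to 98.6, 69.9 and 68.5 TPM, a coefficient of 3.56 ± 0.16 (limma adjusted p = 4.25e-07). Replicate 1 of the combination was the highest of the 3, and without it the coefficient was 3.39. Krtdap, keratinocyte differentiation associated protein, rose from 16.2 ± 0.819 to 101 ± 5.02 TPM. Flg, filaggrin, which aggregates keratin filaments, was chosen after its values were seen, was a member only through the combination, and rose from 0.731 ± 0.133 to 7.21 ± 1.49 TPM.

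The small proline-rich proteins, which are cross-linked into the envelope, moved nearly as a family. Of 14 Sprr genes listed, 13 reached 1 TPM, 10 were called higher (3 of them under 1 TPM in butyrate, Sprr2i included), none lower, and the median was 1.92. The gene families and the chromosome 3 window below were chosen after values were seen. Sprr2h measured 36.4, 31.0 and 33.6 TPM with butyrate and 363, 317 and 312 TPM in the combination, a 9.80-fold higher mean and no overlap. Sprr1b rose from 49.0 ± 4.05 to 341 ± 33.8 TPM. Sprr2d rose from 3.61 ± 0.932 to 39.4 ± 6.72 TPM, and Sprr2i from 0.589 ± 0.198 to 13.7 ± 2.60 TPM, with only part of the Sprr2d and Sprr2i fragments whole, so reads may be shared with other Sprr2 genes. All 6 stefin and cystatin-like protease inhibitor genes at 1 TPM or more were called higher, 2 of them under 1 TPM in butyrate, with a median of 2.06. Among them Stfa3 rose from 8.22 ± 0.255 to 84.0 ± 3.36 TPM, and Cstdc5, with fragments mostly not whole, from 21.3 ± 0.580 to 389 ± 48.9 TPM.

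Many of these genes lie together in the epidermal differentiation complex. Between 90 and 94 Mb of chromosome 3 (GRCm39 according to the submitters' processing notes) lay 64 members, of which 20 were called higher (31.2%) and none lower. The window held 0.472% of members and 14.7% of all genes called higher. S100a8 and S100a9, calcium-binding proteins that together form calprotectin, lie there at 90576285 to 90577342 and 90599939 to 90603028. S100a9 measured 13.8, 13.6 and 14.2 TPM with butyrate and 180, 162 and 168 TPM in the combination, a coefficient of 3.52 ± 0.07 (limma adjusted p = 5.07e-09). S100a8 rose from 14.2 ± 1.56 to 149 ± 6.24 TPM. Away from this window, Calm4, a calmodulin-like protein of differentiating skin, rose from 4.85 ± 0.457 to 95.3 ± 10.8 TPM.

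**Figure D2:**
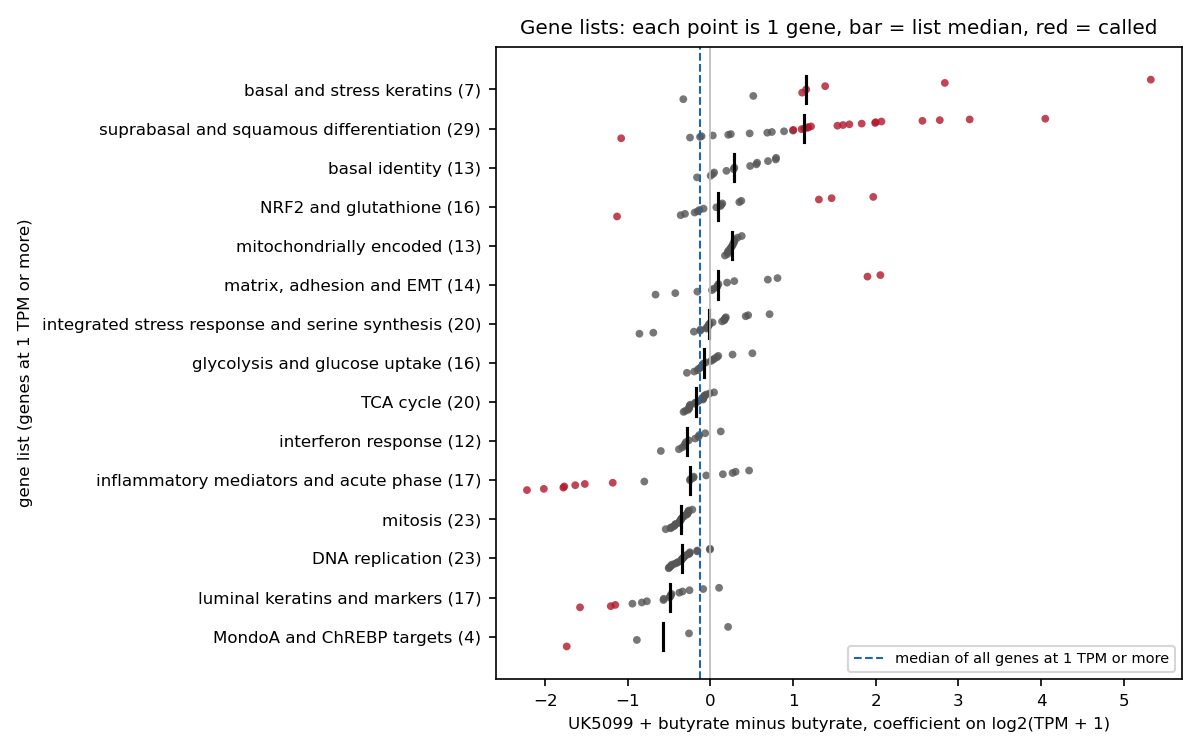
Coefficient of combination minus butyrate on the log2(TPM + 1) scale for every list member at 1 TPM or more (1 point per gene, number in brackets), with a black bar at each list median and a dashed line at the median of all members, -0.12. Red points are called. The 2 keratin and squamous lists at the top have medians of 1.16 and 1.14, and the luminal list lies at -0.50.

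Outside the epithelial structural genes, the oestrogen- and xenobiotic-metabolising enzyme Cyp1b1 rose from 4.58, 4.47 and 4.20 TPM to 69.6, 68.0 and 72.0 TPM. The 3 replicates of each group lay close together, and the coefficient of 3.71 ± 0.04 had the smallest relative error among the 12 highest (limma adjusted p = 2.27e-10). Il36g, an interleukin 1 family cytokine of epithelia, rose from 1.58 ± 0.128 to 13.4 ± 0.912 TPM. Tslp, thymic stromal lymphopoietin, an epithelial cytokine that was chosen after its values were seen, rose from 67.4 ± 0.764 to 403 ± 16.1 TPM. Matrix metalloproteases split, with 4 of 9 called higher (Mmp9, Mmp3, Mmp10 and Mmp13) and 2 lower (Mmp7 and Mmp15). Mmp13, a collagenase, rose from 1.39 ± 0.287 to 8.91 ± 0.897 TPM.

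The upstream sequence of some of these genes is shown because the letters of an AP-1 site recurred in it. AP-1 is a Fos and Jun dimer that binds DNA and acts in epithelial stress and squamous maturation. TGANTCA was searched on both strands of the 250 bases before each gene's start in the RefSeq promoter table (GRCm38.p6). It was present in 30 of 90 genes called higher that matched the table (33.3%), in 6 of 61 called lower (9.84%), in 472 of 8428 members (5.6%) and in 7.82% of all 27025 promoters. Without the Sprr genes, whose promoters are related, it was present in 22 of 81 (27.2%). A match describes the letters only, and no binding was measured here. The 5 promoters below belong to genes described above and end at the base before the start, with the AP-1 letters in capitals.
Rptn (chr3:93393449-93393698, plus strand): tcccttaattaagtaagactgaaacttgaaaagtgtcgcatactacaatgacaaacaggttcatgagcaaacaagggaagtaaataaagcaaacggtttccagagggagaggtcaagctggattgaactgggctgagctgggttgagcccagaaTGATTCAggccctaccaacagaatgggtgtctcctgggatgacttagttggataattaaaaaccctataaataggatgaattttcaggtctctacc
Sprr2d (chr3:92338890-92339139, plus strand): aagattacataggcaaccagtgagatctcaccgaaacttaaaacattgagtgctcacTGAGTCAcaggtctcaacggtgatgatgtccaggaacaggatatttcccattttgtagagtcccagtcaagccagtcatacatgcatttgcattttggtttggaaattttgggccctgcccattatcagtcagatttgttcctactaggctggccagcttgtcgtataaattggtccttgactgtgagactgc
Sprr2h (chr3:92385435-92385684, plus strand): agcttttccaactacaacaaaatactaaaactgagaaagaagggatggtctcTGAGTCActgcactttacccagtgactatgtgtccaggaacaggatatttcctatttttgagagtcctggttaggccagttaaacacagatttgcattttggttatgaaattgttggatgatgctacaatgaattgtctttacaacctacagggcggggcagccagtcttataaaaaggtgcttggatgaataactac
Krtdap (chr7:30787655-30787904, plus strand): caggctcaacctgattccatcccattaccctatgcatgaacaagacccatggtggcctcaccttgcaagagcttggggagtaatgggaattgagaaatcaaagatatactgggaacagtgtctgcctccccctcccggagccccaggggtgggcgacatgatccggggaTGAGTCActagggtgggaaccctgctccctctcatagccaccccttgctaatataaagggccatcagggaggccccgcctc
Mmp13 (chr9:7272264-7272513, plus strand): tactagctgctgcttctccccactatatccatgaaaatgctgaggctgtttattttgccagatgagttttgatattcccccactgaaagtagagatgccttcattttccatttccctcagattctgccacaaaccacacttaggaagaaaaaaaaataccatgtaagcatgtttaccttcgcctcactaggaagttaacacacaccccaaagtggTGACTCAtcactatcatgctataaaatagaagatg
The match began 96 bases upstream of the start in Rptn, 193 in Sprr2d, 198 in Sprr2h, 81 in Krtdap and 35 in Mmp13. Of the AP-1 and immediate early genes themselves, all 16 at 1 TPM or more, 5 rose, 6 fell and none was called, with a median of 0.02.

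Luminal genes moved the other way. Of 18 luminal keratins and markers, 17 were in the table and reached 1 TPM, 3 were called lower (Krt8, Cldn3 and Fkbp5), 14 fell, none rose and the median was -0.50. Krt8 measured 272, 275 and 279 TPM with butyrate and 120, 116 and 120 TPM in the combination. The groups were far apart relative to their spread, with a coefficient of -1.21 ± 0.03 (limma adjusted p = 7.52e-09). Krt18, its partner, fell from 613 ± 6.88 to 359 ± 5.68 TPM (coefficient -0.77). Cldn3, a tight junction claudin, fell from 313 ± 3.45 to 104 ± 4.71 TPM.

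Inflammatory mediators and acute-phase genes were the other list with several genes called lower. Of 25 listed, 23 were in the table and 17 reached 1 TPM, of which 7 were called lower and none higher, 9 fell, 2 rose and the median was -0.25. Lcn2, lipocalin 2, an iron-binding defence protein, was at 70.2, 70.2 and 70.5 TPM with butyrate and 11.8, 16.7 and 14.8 TPM in the combination, a coefficient of -2.22 ± 0.10 (limma adjusted p = 3.21e-07). Combination replicate 1 was the lowest, and without it the coefficient was -2.09. Cp, the copper oxidase ceruloplasmin, fell from 59.3 ± 0.764 to 13.9 ± 1.18 TPM, and Ltf, lactoferrin, from 6.68 ± 0.458 to 1.27 ± 0.395 TPM. Of 8 Cxcl chemokines at 1 TPM or more, 4 were called lower and 5 fell, while 2 rose, Cxcl3 (coefficient 0.82) and Cxcl16 (0.27). The neutrophil chemokines Cxcl1 and Cxcl2 and the interferon-induced Cxcl10 were chosen after their values were seen. Cxcl1 fell from 175 ± 1.29 to 76.6 ± 5.24 TPM, Cxcl2 from 135 ± 5.33 to 42.9 ± 3.71 TPM and Cxcl10 from 17.9 ± 1.28 to 5.64 ± 1.19 TPM. Cxcl15, a chemokine of mucosal epithelium, fell from 27.2 ± 1.23 to 7.23 ± 0.883 TPM. The letters of an NF-kB site (GGGNN followed directly by TTTCC) were searched on both strands in the same way. They were present in 6 of 61 promoters of genes called lower (9.84%), Cxcl1 and Cxcl2 included. The share was 2 of 90 among genes called higher (2.22%), 160 of 8428 among members (1.9%) and 1.65% of all promoters.

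The 12 lowest coefficients included further secreted and defence-related genes. Clca1, a secreted metalloprotease that regulates chloride channels, was at 48.2, 49.7 and 47.9 TPM with butyrate and 3.35, 3.66 and 4.001 TPM in the combination, a 13.2-fold lower mean and a coefficient of -3.41 ± 0.16 (limma adjusted p = 4.52e-07). Mmp7, matrilysin, which epithelia secrete, fell from 178, 172 and 181 TPM to 18.1, 20.9 and 20.2 TPM (coefficient -3.10 ± 0.05, limma adjusted p = 1.62e-09). The groups did not overlap for either gene. Fmo2, a flavin monooxygenase, fell from 18.2 ± 0.458 to 2.45 ± 0.247 TPM and Noxa1, an activator of NADPH oxidase 1, from 5.85 ± 0.519 to 0.833 ± 0.101 TPM. Cyp2f2, a cytochrome P450, fell from 3.67 ± 0.227 to 0.224 ± 0.0704 TPM, the latter from 23 to 40 fragments. Dcn, the matrix proteoglycan decorin and the highest fibroblast marker, fell from 9.52 ± 0.129 to 1.41 ± 0.174 TPM. The inflammasome receptor genes Naip5 and Naip6, near copies whose fragments were not whole, had coefficients of -1.94 and -2.06. Ppp1r1b and G430049J08Rik, with fragments partly not whole, had coefficients of -2.10 and -2.19.

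Genes of pyruvate and glucose use had list medians near the -0.12 of all members. The carrier subunit Mpc1 was at 4.62, 4.85 and 4.41 TPM with butyrate and 3.94, 4.41 and 4.68 TPM in the combination. These values overlapped (coefficient -0.08, limma adjusted p = 0.392), its fragments were not whole, and the sign was positive after median-of-ratios, quantile and voom scaling. Mpc2 fell from 3.37 ± 0.169 to 2.78 ± 0.0430 TPM (coefficient -0.21), which did not pass after median-of-ratios, quantile or voom scaling. None of 11 pyruvate dehydrogenase genes and kinases, 16 glycolysis genes, 20 TCA cycle genes or 15 fatty acid oxidation genes at 1 TPM or more was called. Only 1.65% of all members were called, so this does not set these lists apart. The adjusted p alone passed for 43.1% of members. The TCA cycle list had 13 genes that fell, none that rose and a median of -0.17, but after median-of-ratios scaling 6 fell, 2 rose and the median was -0.03. Glycolysis had 4 that rose and 8 that fell (median -0.07), and 8 that rose and 1 that fell after that scaling. None of 21 histone deacetylase and acetyltransferase genes was called, with 14 that fell against 4 after that scaling. The 13 mitochondrially encoded genes had a median of 0.27, with 9 that rose and none that fell, 13 that rose after median-of-ratios and 4 after quantile scaling. Mitochondrial genes took 3.43% to 3.73% of fragments in butyrate and 4.47% to 4.87% in the combination.

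Nutrient-responsive genes that fell included MondoA targets and glutamine synthetase. MondoA and its relative ChREBP are transcription factors that respond to glucose metabolites and bind paired E-boxes. Of 6 listed genes, 5 were in the table and 4 reached 1 TPM, of which 3 fell, 1 rose, 1 was called and the median was -0.58. Txnip, which restrains glucose uptake and thioredoxin, was at 841, 769 and 809 TPM with butyrate and 236, 248 and 237 TPM in the combination, a coefficient of -1.74 ± 0.04 (limma adjusted p = 4.78e-09). The groups were separated more than 3-fold. Its relative Arrdc4 fell from 16.2 ± 0.706 to 8.28 ± 0.102 TPM (coefficient -0.89). Their promoters are shown because they hold E-box letters, a pair of CACGNG motifs with 5 bases between them in Txnip and CACGTG in Arrdc4, in capitals.
Txnip (chr3:96557707-96557956, plus strand): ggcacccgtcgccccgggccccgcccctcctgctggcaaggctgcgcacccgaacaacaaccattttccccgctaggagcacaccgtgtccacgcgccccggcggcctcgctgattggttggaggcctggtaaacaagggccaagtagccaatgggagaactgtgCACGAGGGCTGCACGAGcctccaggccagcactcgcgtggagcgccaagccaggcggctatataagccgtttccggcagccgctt
Arrdc4 (chr7:68749239-68749488, minus strand): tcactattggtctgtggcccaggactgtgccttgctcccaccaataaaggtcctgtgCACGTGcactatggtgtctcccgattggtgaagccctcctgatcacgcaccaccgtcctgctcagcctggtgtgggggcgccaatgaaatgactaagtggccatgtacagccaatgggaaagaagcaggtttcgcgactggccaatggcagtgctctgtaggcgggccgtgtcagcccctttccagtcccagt
The paired motif began 85 bases upstream of the start in Txnip and was present in 14 of 27025 promoters (0.0518%) and in 1 of 61 genes called lower, Txnip itself. CACGTG began 193 bases upstream in Arrdc4 and was present in 6.86% of all promoters, in 10.4% of members, in 8.20% of genes called lower and in 3.33% of genes called higher. Glul, glutamine synthetase, was at 82.6, 82.6 and 83.7 TPM with butyrate and 28.0, 30.3 and 30.3 TPM in the combination (coefficient -1.46 ± 0.03, limma adjusted p = 4.21e-09). Its processed pseudogene Glns-ps1, chosen after its values were seen, fell from 27.8 ± 3.43 to 9.57 ± 0.871 TPM, with fragments that were not whole and may come from Glul. Of the 13 genes of glutamine and transaminases, Glul alone was called, with 2 that rose and 6 that fell.

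Detoxification genes moved in both directions. Of 16 NRF2 and glutathione genes at 1 TPM or more, 3 were called higher and 1 lower, 6 rose and 6 fell. Nqo1, a quinone reductase and classical NRF2 target, rose from 21.3, 21.6 and 22.2 TPM to 64.4, 59.3 and 61.7 TPM (coefficient 1.47 ± 0.04, limma adjusted p = 2.37e-08). The glutathione transferases Gsta4 and Gsta1 rose to 262 ± 22.9 TPM from 105 ± 0.915 TPM and to 28.2 ± 4.96 TPM from 6.40 ± 0.303 TPM, whereas Gsta3 fell from 4.29 ± 0.152 to 1.42 ± 0.0242 TPM. Of 10 retinoic acid genes at 1 TPM or more, 2 rose, 4 fell and 4 did not pass. Crabp2, a retinoic acid binding protein, rose from 12.7 ± 0.321 to 50.9 ± 4.29 TPM, and Cyp26b1, which degrades retinoic acid, fell from 2.91 ± 0.118 to 0.454 ± 0.0493 TPM.

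Proliferation genes were lower by small amounts. All 23 mitosis genes fell (median -0.36), as did 18 of 23 DNA replication genes (median -0.34), and none was called. After median-of-ratios scaling 13 mitosis genes fell, none rose and the median was -0.22, so part of each median is the overall shift. Without combination replicate 1, 22 mitosis and 17 replication genes fell. Mki67, a marker of cycling cells, was at 83.9, 86.1 and 84.2 TPM with butyrate and 56.5, 63.7 and 65.7 TPM in the combination (coefficient -0.45 ± 0.06, limma adjusted p = 2.12e-04). No interferon response, antigen presentation, integrated stress response or chaperone gene was called, of 12, 12, 20 and 20 at 1 TPM or more.

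The effect of UK5099 with butyrate was then set beside its effect without butyrate, measured in the other 6 samples. UK5099 minus vehicle called 454 genes (1.84% of 24674), 229 higher and 225 lower. Of these, 140 were also called with butyrate in the same direction, which is 30.8% of the 454 and 62.5% of the 224. The share was 42.8% (98) of the genes that UK5099 raised and 18.7% (42) of those that it lowered, a difference that was not tested. Of the 454, 55 were under 1 TPM in both butyrate and the combination, too low to be called on log2(TPM + 1). A gene already under 1 TPM with butyrate alone could not be called lower, which limits the share of lowered genes. Over both directions the share was 37.2% after median-of-ratios scaling. Spink5 was the 1 gene called in both contrasts in opposite directions. At any size, 325 of the 454 passed the adjusted p in the same direction with butyrate, 8 in the opposite direction and 121 did not pass. Genes raised by UK5099 had a median coefficient of 1.55 without and 0.88 with butyrate, and genes lowered by it -1.25 and -0.39. These genes were selected for a large coefficient without butyrate, which by itself favours a smaller median with butyrate. The medians therefore do not measure how far butyrate changed the effect. Of the 224 genes called with butyrate, 94.2% had the same sign in both contrasts, as did 74.8% of all members.

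**Figure D3:**
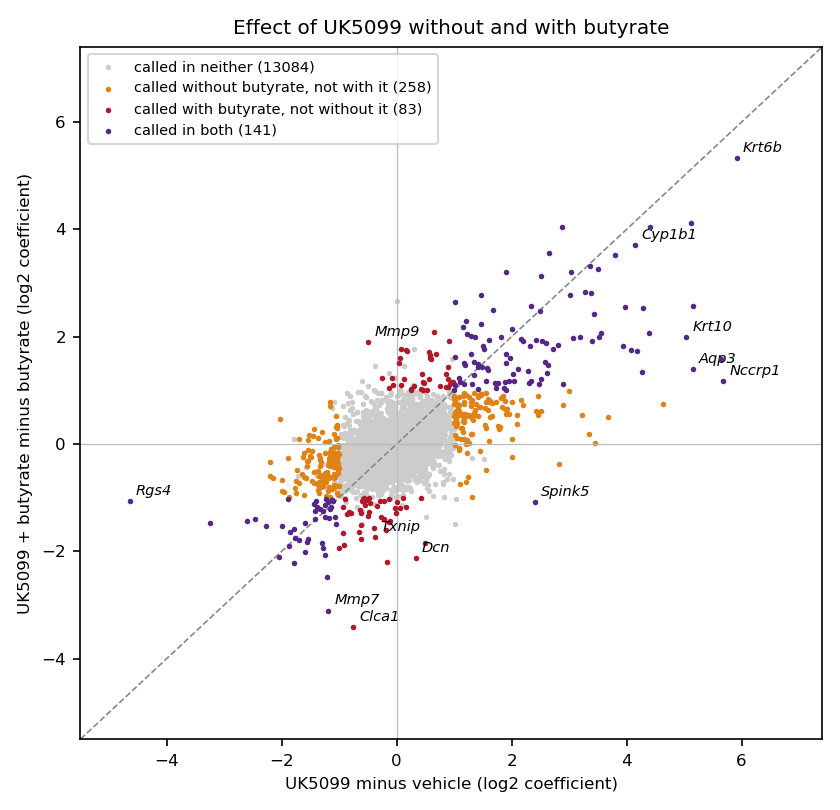
Coefficient of UK5099 minus vehicle (horizontal) against UK5099 + butyrate minus butyrate (vertical), both on the log2(TPM + 1) scale, for the 13566 members (1 point per gene) with the line of equality dashed. Colours mark genes called in both contrasts, in 1 or in neither. Most genes called in both lie in the upper right, and Spink5 lies in the lower right.

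Whether the UK5099 effect itself differed with butyrate was tested by the interaction, which was called for 250 genes (1.01% of 24674). Of the 454 UK5099 genes, 313 were not called with butyrate. For 132 of these the interaction was called, so that a difference was shown on the log2(TPM + 1) scale, while for 181 it was not. The 55 UK5099 genes under 1 TPM in both butyrate and the combination could not reach the size limit there. For such genes a called interaction does not show a different ratio. Of the 224 genes called with butyrate, the interaction was not called for 154. It was called for 70. Of these, 41 moved further in their direction with butyrate than without it, or moved the opposite way without it, and 29 moved less far. Butyrate was not tested against vehicle here, so those levels are given as values.

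Of the 29 squamous genes, the interaction was called below 0 for 14 and above 0 for 3. Nccrp1, an F-box associated protein of squamous epithelium, measured 2.83 ± 0.186 TPM under vehicle, 199 ± 44.3 under UK5099, 228 ± 6.16 under butyrate and 525 ± 131 in the combination. Its interaction was -4.51, and its rise with butyrate (1.18) leant on combination replicate 1, since it was 0.98 without that replicate. Aqp3, a water and glycerol channel of stratified epithelia, measured 3.34 ± 0.366, 153 ± 8.06, 105 ± 1.42 and 280 ± 15.7 TPM in the same order (interaction -3.75). Teddm3, with fragments mostly not whole, had an interaction of -4.06. Krt10, a suprabasal keratin, rose 4.40-fold with butyrate, from 8.14 ± 0.326 to 35.8 ± 5.97 TPM, but went from 2.63 ± 0.190 to 118 ± 12.5 TPM without it (interaction -3.03). Crnn, cornulin of the epidermal differentiation complex, was at 356 ± 8.82 and 364 ± 41.7 TPM with butyrate without and with UK5099 (coefficient 0.03, limma adjusted p = 0.906), against 12.8 ± 0.390 and 150 ± 20.7 TPM without butyrate. Mt4, a metallothionein of stratified epithelium, and Car12, a carbonic anhydrase, likewise did not pass with butyrate (coefficients 0.19 and 0.09). Spink5, a serine protease inhibitor, fell from 19.9 ± 0.742 to 8.88 ± 0.907 TPM with butyrate and rose from 1.67 ± 0.154 to 13.2 ± 1.70 TPM without it (interaction -3.49). After median-of-ratios scaling its coefficient with butyrate was -0.95, short of the size limit.

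**Figure D4:**
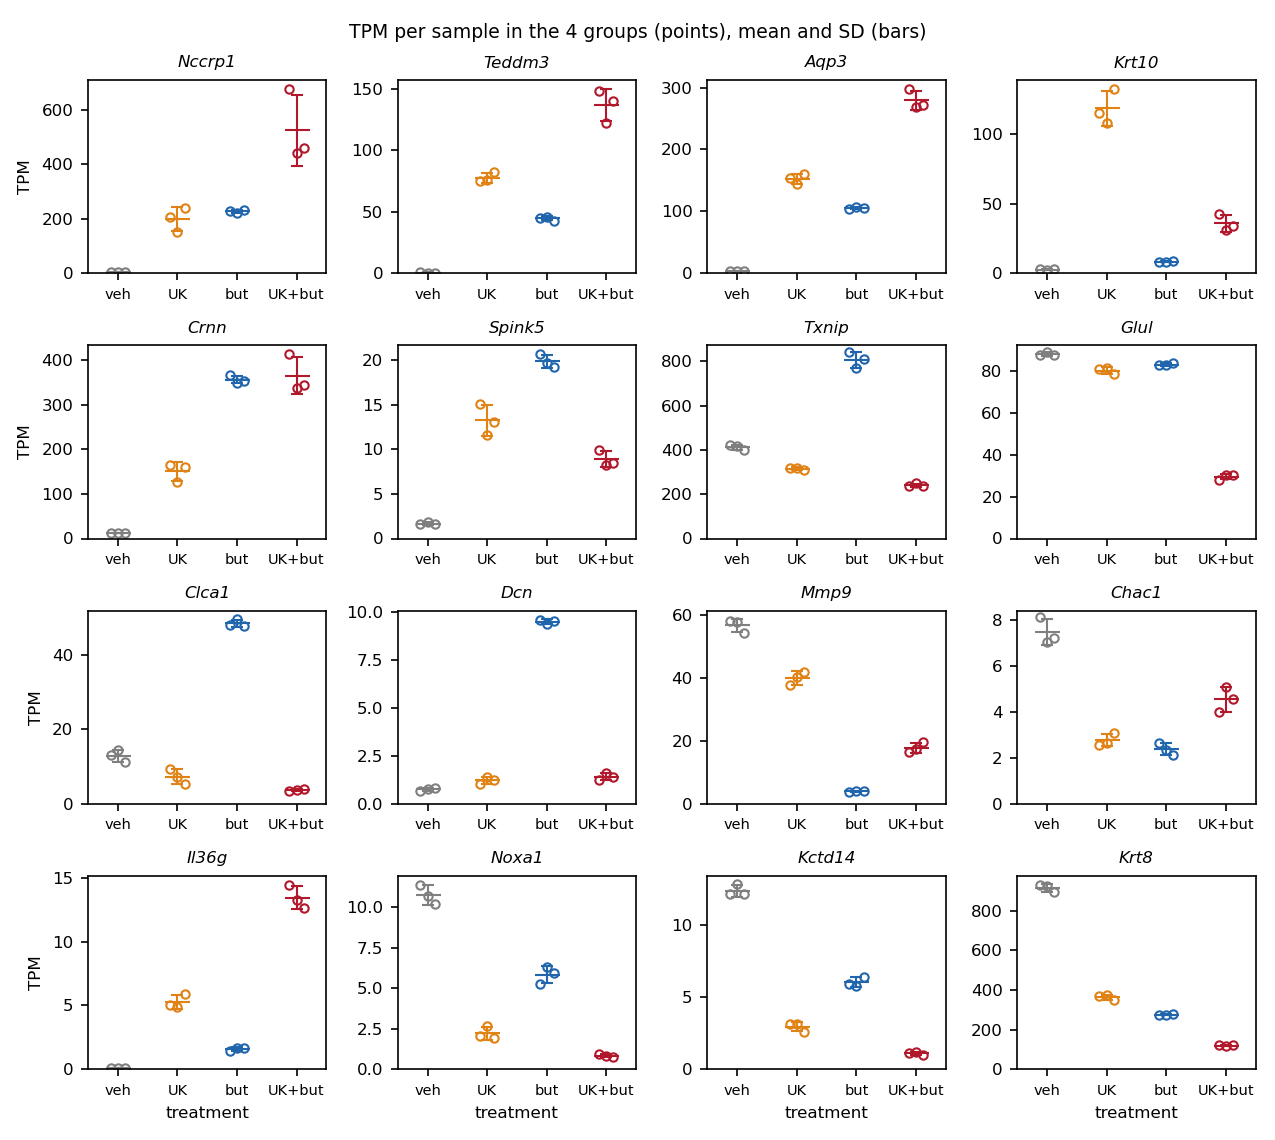
TPM in vehicle (veh), UK5099 (UK), butyrate (but) and UK5099 + butyrate (UK+but) for 16 genes, with 1 circle per sample and bars for the mean and SD (n = 3). Every vertical axis starts at 0. The lowest row holds genes with the smallest or a small interaction, where UK5099 shifts the level in the same direction with and without butyrate, and the other rows hold genes with a called interaction.

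Some effects were larger with butyrate. Tgm3, a transglutaminase that cross-links envelope proteins and was chosen after its values were seen, measured 0.0160 ± 0.00378 TPM under vehicle, 0.0572 ± 0.0235 under UK5099, 0.0116 ± 0.00835 under butyrate and 2.08 ± 0.119 in the combination (interaction 1.55, limma adjusted p = 4.95e-08). Butyrate samples held 1 to 7 Tgm3 fragments and combination samples 774 to 880. Txnip fell by 0.38 without butyrate, from 412 ± 10.6 to 316 ± 6.36 TPM (interaction -1.36). Glul went from 88.0 ± 0.991 to 80.1 ± 1.62 TPM without butyrate (interaction -1.33). Clca1 was at 12.9 ± 1.62 TPM under vehicle and 7.32 ± 1.98 TPM under UK5099, and Dcn at 0.762 ± 0.0857 and 1.23 ± 0.184 TPM, so that both peaked under butyrate alone, with interactions of -2.65 and -2.46. Mmp9, a gelatinase, measured 56.6 ± 1.96 TPM under vehicle, 40.0 ± 2.13 under UK5099, 4.004 ± 0.128 under butyrate and 17.7 ± 1.63 in the combination, so that UK5099 lowered it without butyrate and raised it with butyrate (interaction 2.39). Chac1, which degrades glutathione, turned in the same way (interaction 1.88).

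Other genes were already near or under 1 TPM under butyrate alone. Rgs4, a regulator of G protein signalling, was at 41.7 ± 2.75 TPM under vehicle and 0.710 ± 0.217 under UK5099, and at 1.42 ± 0.126 under butyrate and 0.151 ± 0.0546 in the combination, the last from 6 to 12 fragments (interaction 3.58). Scara3, a scavenger receptor, was at 4.09 ± 0.161 TPM under vehicle, 0.174 ± 0.0314 TPM under butyrate and 0.0342 ± 0.0164 TPM in the combination. Its butyrate samples held 43 to 66 fragments and its combination samples 8 to 19, a fall that the log2(TPM + 1) scale nearly hides. Cxcl13 and Ctla2a held 1 fragment in all over the 3 combination samples and 11 and 6 over the butyrate samples, which cannot show a further fall at this depth.

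For a further set the effect was about as large with butyrate as without. Il36g had coefficients of 2.48 with and 2.50 without butyrate, an interaction of -0.01 ± 0.09 (SE). Noxa1 had -1.90 and -1.88 (interaction -0.02 ± 0.12), Kctd14 -1.75 and -1.77 (0.02 ± 0.08) and Glrx, glutaredoxin, 1.00 and 1.00 (-0.00 ± 0.09), although the Glrx coefficient with butyrate was 0.94 without combination replicate 1. Krt8 had -1.21 and -1.33 (0.12 ± 0.04, limma adjusted p = 0.0518), and S100a8 3.31 and 3.37 (-0.06 ± 0.11). These genes were selected for small interaction or named above, and an interaction that did not pass does not show equal effects. Coefficients on log2(TPM + 1) understate the ratio of genes near or under 1 TPM.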

How the data were processed

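Strand-marked paired-end RNA sequencing libraries of 12 organoid samples (4 groups, 3 replicates each) were analysed from the deposited TPM table. The authors made these TPM values before deposit. The study's methods describe alignment with STAR and estimation with RSEM, whereas the submitters' processing notes name STAR 2.7.9a, Partek and GRCm39, so the exact route is uncertain. Coordinates are as listed in the deposited table (GRCm39 by those notes, 1-based). The deposited TPM behave as fragments divided by genomic span rather than by transcript length, so levels of different genes are not comparable, and pseudogenes held 43.7% to 46.3% of TPM but 7.38% to 7.60% of fragments in butyrate and combination samples. Fragments recovered on this basis were whole, within 0.02, for 66.2% to 67.5% of values under 1000 fragments. Totals were 33251841 to 43498956 per sample, which covers counting error only.

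The contrasts were fitted on log2(TPM + 1) over all 24674 genes and 12 samples in a limma two-factor model (UK5099, butyrate and their interaction, limma 3.58.1, R 4.3.3) without a replicate block, with Benjamini-Hochberg adjustment, and checked on simulated data. Genes were called at adjusted p under 0.01 and a coefficient over 1 in size. Named genes were the 12 highest and 12 lowest called coefficients without overlap, up to 4 passing members per list, and the carrier and keratin genes. They also included the 6 largest and 6 smallest interactions among called genes. Another 6 were called for UK5099 without butyrate and for the interaction, with a coefficient under 0.2 in size with butyrate. A further 9 genes were chosen after their values were seen. Members and lists were chosen with earlier results of these data known. Alternatives were other pseudocounts (0.1 and 0.01), a filter at 1 TPM, median-of-ratios, quantile and protein-coding scaling, voom on fragments, a trended robust fit, a fit of the 6 compared samples, a replicate block, other limits and leaving out each replicate. Promoters came from the RefSeq table of GRCm38.p6 and were matched by symbol, with those of chromosome 18 not used here. Some items are not reported here.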

Additional observations from a re-analysis of the deposited data

Results flagged for a closer look

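On the log2(TPM + 1) scale, the effect of UK5099 differed between organoids with and without butyrate for 39 of the 175 named genes. The limits were a limma interaction adjusted p under 0.01 and a coefficient over 1 in size. The interaction coefficient was above 0 for 15 and below 0 for 24. Single genes were not searched for outlying samples, since groups held 3 samples. Among negative interactions, the squamous and suprabasal genes were Nccrp1 -4.51, Teddm3 -4.06, Spink5 -3.49, Crnn -3.42, Mt4 -3.16, Krt10 -3.03 and Krtdap -2.59. Channels, retinoid, detoxification and cytokine genes were Aqp3 -3.75, Aqp5 -1.06, Car12 -1.91, Crabp2 -1.49, Aldh1a1 -1.12, Gsta1 -1.10, Nqo1 -1.17 and Tslp -1.42. The remaining genes were Clca1 -2.65, Dcn -2.46, Mmp7 -1.91, Fmo2 -1.26, Ltf -1.16, G430049J08Rik -2.02, Glul -1.33, Glns-ps1 -1.32 and Txnip -1.36. They were higher with butyrate alone than in the combination, as was Spink5. Among positive interactions, the envelope and keratin genes were Tgm3 1.55, Cnfn 1.18, Sprr2i 1.296 and Krt17 1.17. Cnfn held 0 fragments in every vehicle sample and 88 to 135 under UK5099, so whether its ratio was larger with butyrate cannot be told. Matrix, amino acid and retinoid genes were Mmp9 2.39, Tnc 1.06, Chac1 1.88, Slc7a5 1.06, Aldh1a3 1.39 and Cyp26b1 1.18. The remaining genes were Rgs4 3.58, Ctla2a 2.19, Cxcl13 2.05, Oasl2 1.85 and Scara3 1.83. Their level was lower under butyrate alone than under vehicle, as was, for instance, that of Mmp9 and Krt17. Cxcl13 and Ctla2a held 11 and 6 fragments over the butyrate samples, so on this scale little further fall could be measured. Scara3 held 161 there and 37 over the combination samples, a fall that this scale nearly hides. The interactions of Cxcl13 and Ctla2a do not show a different UK5099 effect. Scara3 held 3018 fragments over the vehicle samples and 207 over the UK5099 samples, and whether its ratio differed with butyrate was not tested. Rgs4 held 233 and 29 fragments and was near 1 TPM under butyrate, so its fall with butyrate was limited on this scale too. What sets the other differences was not tested.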

How the results depend on the processing

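Counts are of genes called for combination minus butyrate (224), UK5099 minus vehicle (454) and the interaction (250), and the share is the percent of the 454 called again with butyrate (30.8%). They became 754, 1412 and 599 with a pseudocount of 0.01, 546, 1034 and 519 with 0.1, 807, 1415 and 684 with voom on fragments, and 6780, 8139 and 3303 with no coefficient limit, under which the share was 55.8%. A smaller pseudocount and the absence of a size limit admit more genes by construction. The share was 37.2% after median-of-ratios and 37.0% after quantile scaling. Leaving out 1 replicate at a time gave 213 to 231, 439 to 461, 237 to 253 and 29.3% to 31.6%. Without replicate 1 of both UK5099 groups, an alternative chosen after seeing the data, the counts were 213, 447 and 254 and the share 30.2%. The replicate numbers did not pair the samples (correlations of same-numbered deviations -0.09 to 0.04), and with a replicate block the values were 223, 449, 242 and 31.2%. Of the 175 named genes, 158 had a value in every alternative, and 171 kept their direction in every alternative that gave them a value. The exceptions were Mpc1 (0.046 after median of ratios, 0.037 after quantile scaling, 0.055 with voom), Car9 (0.007 and 0.008) and Egln1 (0.005 and 0.006) after median of ratios and voom, and Crnn (-0.064 without combination replicate 1, alone or with UK5099 replicate 1, and up to 0.079 without another replicate), all small coefficients whose cause was not tested. Of 63 called named genes, 59 kept their call in every alternative that gave them a value, and Glrx (0.94 to 0.99 without a replicate), Nccrp1 (0.98 without combination replicate 1, and with voom), Spink5 (-0.95 after median of ratios) and Sprr2i (pseudocount of 0.01) lost it. Genes with few fragments, such as Cnfn, Sprr2i, Tgm3 and Rgs4, have a direction but no precise ratio. Deposited scaling sets the sign of coefficients near the median shift of -0.12.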

Other observations

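Several lists not described above held both genes that rose and genes that fell in the butyrate background. Over all members, 1.65% were called and 43.1% passed the adjusted p alone. Of 14 matrix, adhesion and epithelial to mesenchymal transition genes at 1 TPM or more, 6 rose, 3 fell and 2 were called higher, Mmp9 and Mmp13. Of 11 EGF receptor ligand and receptor genes, 5 rose and 5 fell. Of 12 hypoxia response genes, 1 rose and 5 fell, and of 20 cholesterol synthesis genes, 3 rose and 5 fell, with none called in either list. The interferon response list had a median of -0.28 with butyrate and -0.98 without it, and the integrated stress response list -0.02 and -0.54. Over the 13566 members the 2 UK5099 contrasts, which share no sample, had a Spearman rho of 0.49 and a Pearson r of 0.62 across genes, given as a description since genes are not replicates and the 4 groups were scaled in 1 table.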
